A study of Danio rerio with 16 samples.

Results

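The DNA replication genes are the genes whose products copy the genome during S phase. They were chosen by symbol from a list of 48 names, covering origin recognition, the replicative helicase, polymerases, the sliding clamp, nucleotide supply and chromatin assembly. Upper and lower case and a final a or b were accepted. All 48 names were found, and they took in 51 of the 32520 rows of the count table, because the name MCM6 has 2 rows and the name RRM2 takes in 2 rows of that symbol and RRM2B. Of the 51 rows, 49 passed the filter on low counts and were tested. POLE2 (ENSDARG00000100028) and the second MCM6 row (ENSDARG00000033231, at most 3 counts in any library) were not tested.

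RNA was measured in ventricles of zebrafish hearts 7 days after an operation, in 16 libraries that each pooled 3 ventricles. The groups were injured ankrd1a mutants, injured wild type, sham mutants and sham wild type, with 4 libraries each. Mutants were of the line ankrd1abns502, made with CRISPR/Cas9, and wild type was AB (Oregon); the age of the adult fish is not given in the sources used here. Injury was made by holding a probe cooled in liquid nitrogen against the ventricular apex for 25 seconds, and sham fish had the chest opened and a probe at room temperature applied. Both genotypes were anaesthetised with tricaine and went through the same opening, so sham groups carry the effects of surgery too. ankrd1a encodes an ankyrin repeat protein of striated muscle, and the series asked which genes lie downstream of it in the regenerating heart. A library averages the 3 fish of its pool, all mutants were of 1 line, and p-values measure the spread between these pools.

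Copying of DNA starts at origins bound by the origin recognition complex, onto which CDC6 and CDT1 load the ring-shaped MCM helicase. CDC45 and the GINS complex then activate that helicase, primase and the polymerases copy the strands, and the clamp PCNA, placed by replication factor C, holds the polymerases on the template. The adult zebrafish heart regrows muscle after injury by division of existing cardiomyocytes, and cells of the epicardium, the vessels and the blood system divide in the same weeks.

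Total counts were 5623721 to 12254719 per library. Levels are counts per 1000000 counts (CPM) after scaling of the libraries by TMM, a correction for library composition, and transcript length was not used, so that levels are not compared between genes. The quasi-likelihood F test of edgeR was fitted over all 14986 tested genes, and a gene is called where the p adjusted by the Benjamini-Hochberg method over all of them was below 0.05. The symbol ANKRD1 stands on 2 gene IDs, and the sources used here do not say which is ankrd1a. ENSDARG00000075263 had 11.2 to 30.7 CPM in injured mutants and 8.19 to 41.9 CPM in injured wild type. In sham fish it had 0.162 to 0.781 CPM in mutants and 0.318 to 4.44 CPM in wild type. ENSDARG00000076192 had at most 5 counts in any library. The levels of these IDs therefore do not check the genotype labels. Cardiomyocyte markers were high in every library, with a summed level of 60800 CPM or more.

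DNA replication genes were higher in injured than in sham ventricles of both genotypes. The largest fold changes of called members were those of TK1 and TYMS, enzymes of thymidylate supply, both with few counts in sham libraries. In mutants 38 of the 49 tested members were called higher after injury, 1 was called lower and 10 were not called, where 16.5% of all tested genes were called higher and 12.4% lower. In wild type 43 were called higher, 1 lower and 5 not, where 13.9% of all tested genes were called higher and 11.5% lower. The median log2 fold change of the members was 1.64 in mutants and 1.83 in wild type, while over all tested genes it was -0.01 in mutants and 0.01 in wild type. The 4 injured libraries lay wholly above the 4 sham libraries for 37 members in mutants (15.8% of all tested genes) and for 38 in wild type (14% of all tested genes). The members' summed level was 621 to 984 CPM in injured mutants, against 256 to 310 CPM in sham mutants, and 535 to 1046 CPM in injured wild type, against 227 to 319 CPM in sham wild type. The ranges of injured and sham libraries did not overlap in either genotype.

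The 2 injury comparisons share no library, and 36 members were called higher in both. A further 7 (GINS1, GINS3, pold3, RFC2, RFC3, RPA1 and 1 row of RRM2) were called higher in wild type and not in mutants, 2 (ORC6 and dhfr) in mutants and not in wild type, 1 (RRM2B) was called lower in both, and 3 (orc2, RFC1 and RFC5) were called in neither. The test of the difference between the genotypes called 0 of these members, and 0 of all 14986 tested genes. Called or not, 37 members reached a log2 fold change of 1 in mutants and 40 in wild type, 18 reached 2 in mutants and 22 in wild type, and 5 reached 3 in mutants and 10 in wild type. Calls held in each of the 8 fits that left out 1 library for 29 of the 39 called members in mutants and 37 of the 44 in wild type. Beside members described by library in what follows, calls lost in mutants were those of MCM10 in 7 of 8 fits (kept without sham mutant replicate 1), of RPA3 without injured or sham mutant replicate 2, of LIG1 and POLD2 without injured mutant replicate 2, and of CDC45 without sham mutant replicate 4. In wild type they were those of GMNN without injured replicate 2 or sham replicate 1 or 2, and of RPA3 without injured replicate 3 or 4 or sham replicate 1 or 2.

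**Figure D1:**
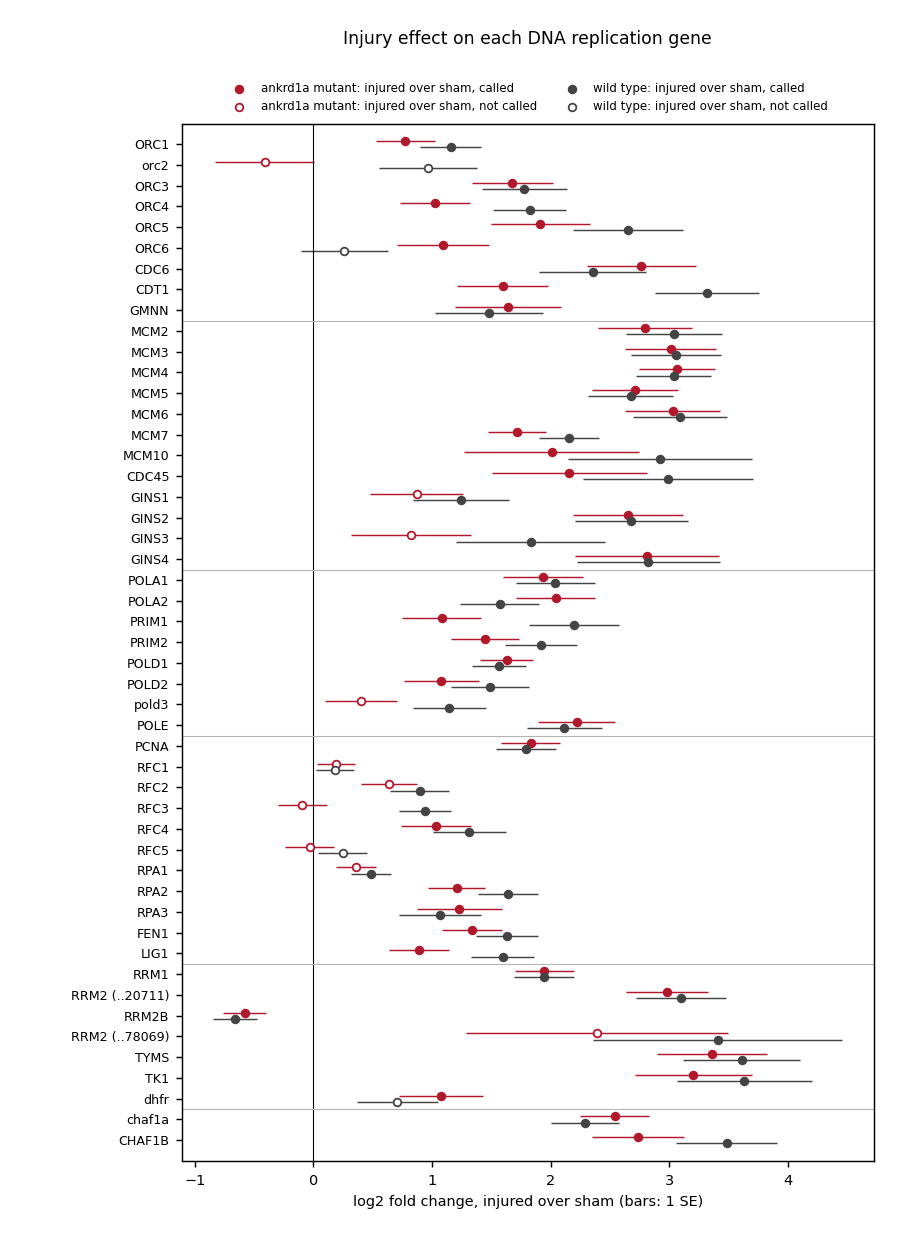
Log2 fold change after injury of each tested DNA replication gene in mutants and in wild type, with its standard error, grouped by role (horizontal axis in log2 units; filled points are called by edgeR). Most members lie right of 0 in both genotypes, with RRM2B on the left in both, orc2 on the left in mutants at -0.41, and RFC1 and RFC5 near 0.

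Markers of several cell types also differed between injured and sham ventricles, and in bulk RNA fewer cells of a type and less RNA per cell cannot be told apart. Summed leukocyte markers were 964 to 1660 CPM in injured mutants, against 302 to 626 CPM in sham mutants, and 858 to 1260 CPM in injured wild type, against 188 to 317 CPM in sham wild type, and 16 of 17 tested rows were called higher in each genotype. Within that list the rows at 0 throughout a group were copies of MFAP4. Summed epicardium and fibroblast markers were 7230 to 11400 CPM in injured mutants, against 2630 to 3180 CPM in sham mutants, and 10100 to 11000 CPM in injured wild type, against 2250 to 3340 CPM in sham wild type, with no row at 0 in any group. Of their 17 tested rows 11 were called higher in mutants and 13 in wild type. Cardiomyocyte markers summed to 66700 to 102000 CPM in injured mutants, against 112000 to 137000 CPM in sham mutants, and 60800 to 84000 CPM in injured wild type, against 105000 to 113000 CPM in sham wild type. Of their 15 tested rows 7 were called lower and 1 higher in mutants, and 8 lower and 1 higher in wild type. Endothelial markers were mixed, with 2 of 12 tested rows called higher and 3 lower in each genotype. Of 3 tested T and B lymphocyte rows 1 was called higher in mutants and 3 in wild type. Erythrocyte rows were called higher for 0 of 7 in mutants and 2 of 7 in wild type. The skeletal muscle and atrium lists also held calls in each genotype. Over all tested genes 16.5% were called higher and 12.4% lower in mutants, and 13.9% higher and 11.5% lower in wild type. The part of these cell types in the rise of the replication genes was not tested.

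The origin and loading genes were called higher for 8 of 9 members in mutants (median log2 fold change 1.60) and 7 of 9 in wild type (median 1.78). CDT1 (ENSDARG00000051854), which brings the MCM ring to the origin, had 3.08, 4.89, 3.08 and 2.85 CPM in injured mutants, against 1.66, 0.487, 1.37 and 0.997 CPM in sham mutants. In wild type it had 7.89, 4.19, 4.84 and 2.91 CPM after injury, against 0.342, 0.476, 0.412 and 0.683 CPM after sham operation. Injured and sham libraries did not overlap in either genotype, and sham wild type lay lowest, at no more than 4 counts per library. CDT1 rose by 1.60 on the log2 scale in mutants (SE 0.38, edgeR adjusted p = 0.00489) and by 3.32 in wild type (SE 0.44, edgeR adjusted p = 4.56e-05).

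CDC6 (ENSDARG00000009942), the ATPase that works with CDT1 in loading, had 8.84, 4.55, 4.81 and 4.32 CPM in injured mutants, against 0.832, 0.162, 0.781 and 1.3 CPM in sham mutants. In wild type it had 7.77, 8.14, 5.83 and 2.7 CPM after injury, against 0.684, 1.11, 1.03 and 1.88 CPM after sham operation. Every injured library exceeded every sham library of its genotype. The log2 fold change was 2.77 in mutants (SE 0.46, edgeR adjusted p = 0.000295) and 2.35 in wild type (SE 0.45, edgeR adjusted p = 0.000942). ORC1 (ENSDARG00000039217), the ATPase subunit of the origin recognition complex, had 13.4, 20.6, 12.6 and 14.0 CPM in injured mutants, against 10.5, 9.09, 5.47 and 9.78 CPM in sham mutants. Its levels in wild type were 18.1, 17.3, 12.3 and 9.66 CPM after injury, against 7.69, 6.67, 4.32 and 6.83 CPM after sham operation. Here too the groups did not overlap, with a smaller gap. ORC1 rose by 0.78 in mutants (SE 0.25, edgeR adjusted p = 0.0254) and by 1.16 in wild type (SE 0.26, edgeR adjusted p = 0.00301). Its call in mutants was lost without injured mutant replicate 2 (adjusted p = 0.0874), sham mutant replicate 2 (0.0504) or sham mutant replicate 3 (0.0782).

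Within the origin recognition complex the subunits did not move alike. ORC3, ORC4 and ORC5 were called higher in both genotypes, by 1.02 to 1.91 on the log2 scale in mutants and 1.78 to 2.65 in wild type. ORC5 had few sham counts, at 2 to 15 per library in mutants and 1 to 5 in wild type. ORC6 (ENSDARG00000075682), the smallest subunit, had 8.98, 8.10, 5.05 and 3.08 CPM in injured mutants, against 2.08, 4.06, 2.73 and 2.79 CPM in sham mutants, and 7.89, 10.6, 6.45 and 3.43 CPM in injured wild type, against 4.45, 8.41, 3.91 and 6.66 CPM in sham wild type. Injured and sham libraries overlapped in both genotypes. The log2 fold change of ORC6 was 1.09 in mutants (SE 0.39, edgeR adjusted p = 0.0424) and 0.26 in wild type (SE 0.37, edgeR adjusted p = 0.651). The difference between these was not called (interaction 0.83, SE 0.53, edgeR adjusted p = 0.754). Its call in mutants was lost without injured mutant replicate 1 or 2 or sham mutant replicate 1, 3 or 4, with adjusted p of 0.0818 to 0.125. 

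The subunit orc2 (ENSDARG00000101465) had 2.01, 1.69, 1.36 and 1.08 CPM in injured mutants, against 2.22, 1.14, 2.34 and 2.29 CPM in sham mutants, and 3.70, 4.42, 1.36 and 3.63 CPM in injured wild type, against 1.03, 0.953, 2.06 and 2.73 CPM in sham wild type. Groups overlapped in both genotypes. Its log2 fold change was -0.41 in mutants (SE 0.42, edgeR adjusted p = 0.495) and 0.96 in wild type (SE 0.41, edgeR adjusted p = 0.0976). The wild-type value passed at 1.21 when injured replicate 3 was left out (adjusted p = 0.0293) and at 1.31 when sham replicate 4 was left out (adjusted p = 0.0433). The partner that keeps CDT1 in check, geminin (GMNN, ENSDARG00000035957), was called higher in both genotypes, by 1.64 in mutants and 1.48 in wild type.

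The helicase genes were among the members that rose most. Of 12 tested rows 10 were called higher in mutants (median log2 fold change 2.68) and 12 in wild type (median 2.87). MCM4 (ENSDARG00000040041), a subunit of the hexameric ring, had 51.6, 55.8, 40.5 and 31.1 CPM in injured mutants, against 5.68, 3.41, 3.51 and 7.98 CPM in sham mutants. In wild type it had 66.3, 77.6, 51.0 and 32.2 CPM after injury, against 6.84, 8.57, 3.91 and 8.02 CPM after sham operation. The lowest injured library stood well above the highest sham library in each genotype. MCM4 rose by 3.07 in mutants (SE 0.32, edgeR adjusted p = 4.17e-06) and by 3.04 in wild type (SE 0.32, edgeR adjusted p = 5.35e-06).

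The ring subunit MCM6 (ENSDARG00000057683) had 41.4, 43.9, 31.3 and 24.9 CPM in injured mutants, against 5.68, 2.11, 1.95 and 6.68 CPM in sham mutants, and 54.1, 59.5, 40.2 and 26.6 CPM in injured wild type, against 4.10, 6.51, 1.85 and 8.36 CPM in sham wild type. No injured library overlapped a sham library. Its log2 fold change was 3.03 in mutants (SE 0.40, edgeR adjusted p = 3.62e-05) and 3.09 in wild type (SE 0.40, edgeR adjusted p = 3.41e-05). MCM2, MCM3 and MCM5 rose by 2.71 to 3.01 in mutants and 2.67 to 3.06 in wild type. MCM7 (ENSDARG00000101180), the remaining subunit of the ring, had 29.5, 32.1, 22.6 and 16.4 CPM in injured mutants, against 7.76, 6.33, 8.78 and 7.58 CPM in sham mutants, and 23.6, 31.5, 23.8 and 22.5 CPM in injured wild type, against 4.45, 9.05, 3.91 and 5.12 CPM in sham wild type. It too was separated by injury in both genotypes, with a log2 fold change of 1.72 in mutants (SE 0.25, edgeR adjusted p = 7.90e-05) and 2.15 in wild type (SE 0.26, edgeR adjusted p = 1.54e-05). The ratio of MCM7 CPM to the summed CPM of MCM2 to MCM6, a comparison chosen after the values were seen and given without a test, was 0.135 ± 0.0118 in injured mutants, against 0.387 ± 0.169 in sham mutants, and 0.119 ± 0.0384 in injured wild type, against 0.203 ± 0.0643 in sham wild type (SD, n = 4 each). The ranges were separate in mutants and overlapped in wild type.

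**Figure D2:**
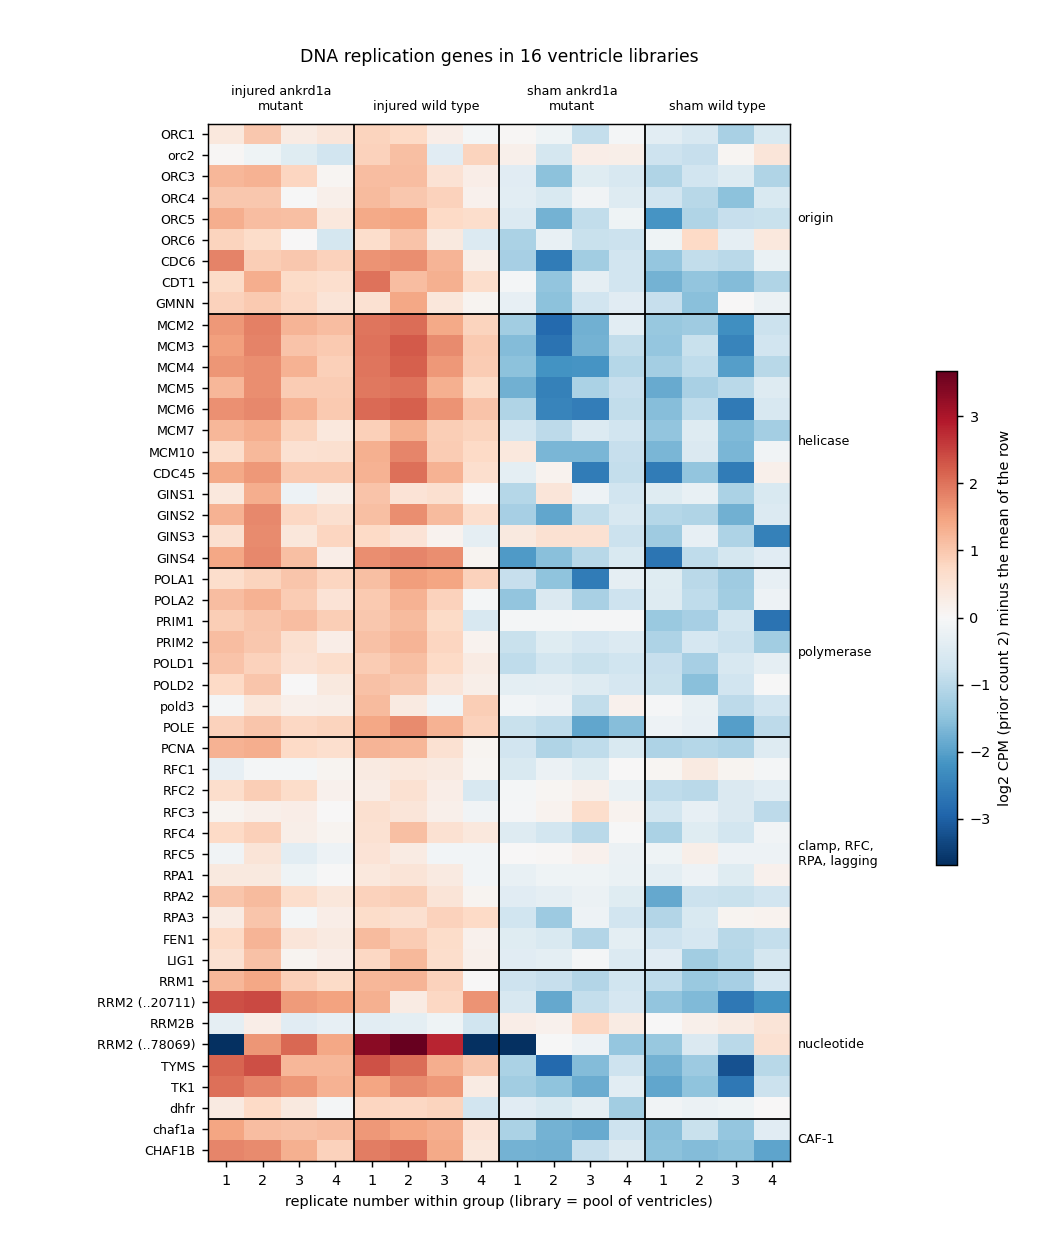
Level of each tested DNA replication gene in each of the 16 libraries, as log2 CPM minus the gene's mean over all libraries (red above the mean, blue below), with rows ordered by role and columns from injured mutants to sham wild type. Most rows are above their mean in the 8 injured libraries and below it in the 8 sham libraries. RRM2B has the opposite order, except in injured mutant replicate 2, where it is above its mean.

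GINS1 and GINS3, subunits of the GINS complex that completes the active helicase, were the helicase genes called in wild type and not in mutants. GINS1 (ENSDARG00000007624) had 4.15, 8.27, 2.71 and 3.70 CPM in injured mutants, against 1.39, 4.38, 2.73 and 1.80 CPM in sham mutants, and 6.78, 4.53, 4.84 and 3.22 CPM in injured wild type, against 2.22, 2.54, 1.23 and 2.05 CPM in sham wild type. Libraries overlapped in mutants and not in wild type. Its log2 fold change was 0.87 in mutants (SE 0.39, edgeR adjusted p = 0.104) and 1.24 in wild type (SE 0.40, edgeR adjusted p = 0.0308). It passed in mutants without sham mutant replicate 2 (1.26, adjusted p = 0.0355), and its wild-type call was lost without injured wild-type replicate 1 or 2 or sham wild-type replicate 1, 3 or 4, with adjusted p of 0.05 to 0.0944.

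GINS3 (ENSDARG00000038847) had 2.01, 4.72, 1.73 and 2.31 CPM in injured mutants, against 1.66, 1.95, 1.95 and 0.598 CPM in sham mutants, and 2.22, 1.86, 1.36 and 0.934 CPM in injured wild type, against 0.342, 0.953, 0.412 and 0 CPM in sham wild type. The groups overlapped in both genotypes. GINS3 gave 0.82 in mutants (SE 0.50, edgeR adjusted p = 0.237) and 1.83 in wild type (SE 0.63, edgeR adjusted p = 0.0393), a call lost without injured wild-type replicate 1 or 2 or sham wild-type replicate 1, 3 or 4, with adjusted p of 0.0803 to 0.0955, and with the wild-type groups fitted alone (0.0622). GINS2 and GINS4, the complex's other subunits, were called higher in both genotypes, by 2.65 and 2.81 in mutants and by 2.68 and 2.82 in wild type. Their sham counts were low, at 1 to 8 per library for GINS2 and 0 to 9 for GINS4. CDC45 and MCM10, which act with GINS in switching the helicase on, were also called higher in both genotypes. CDC45 had 0 to 9 counts per sham library, and MCM10 (ENSDARG00000045815) had no more than 3 counts in any sham wild-type library. In mutants MCM10 rose by 2.01 (SE 0.74, edgeR adjusted p = 0.0487), a call lost with no filter on low counts (adjusted p = 0.0655), with the filter of 1 CPM in 4 libraries (0.0531) and with the mutant groups fitted alone (0.0661), and kept with DESeq2 (0.0231). Its log2 fold change was 3.46 (adjusted p = 0.00830) without sham mutant replicate 1, and the adjusted p was 0.0631 to 0.117 without any other library of the mutant groups.

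The polymerase and primase genes were called higher for 7 of 8 tested members in mutants (median log2 fold change 1.54) and 8 of 8 in wild type (median 1.74). POLE (ENSDARG00000058533), the catalytic subunit of the leading-strand polymerase, had 10.7, 12.1, 10.1 and 10.6 CPM in injured mutants, against 3.19, 2.92, 1.37 and 1.80 CPM in sham mutants, and 16.2, 20.2, 14.8 and 10.8 CPM in injured wild type, against 5.13, 4.76, 1.23 and 2.90 CPM in sham wild type. Injured libraries lay at about 10 CPM or more and sham libraries below 6, without overlap. POLE rose by 2.22 in mutants (SE 0.33, edgeR adjusted p = 0.000102) and by 2.11 in wild type (SE 0.32, edgeR adjusted p = 0.000126).

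POLA1 (ENSDARG00000045308), the catalytic subunit of the polymerase that extends primers, had 9.38, 10.8, 12.3 and 10.6 CPM in injured mutants, against 3.19, 1.95, 0.781 and 4.69 CPM in sham mutants, and 13.2, 17.8, 16.9 and 11.0 CPM in injured wild type, against 4.27, 2.86, 2.26 and 4.78 CPM in sham wild type. No injured library overlapped a sham library of its genotype. POLA1 rose by 1.93 in mutants (SE 0.33, edgeR adjusted p = 0.000388) and by 2.04 in wild type (SE 0.33, edgeR adjusted p = 0.000260). POLD1 (ENSDARG00000027689), the catalytic subunit of the lagging-strand polymerase, had 17.4, 15.0, 12.0 and 13.1 CPM in injured mutants, against 4.16, 5.03, 4.49 and 4.79 CPM in sham mutants, and 16.0, 18, 13.8 and 10.2 CPM in injured wild type, against 4.45, 3.33, 5.35 and 6.49 CPM in sham wild type. These groups were separate as well, and POLD1 rose by 1.63 in mutants (SE 0.22, edgeR adjusted p = 5.33e-05) and 1.56 in wild type (SE 0.22, edgeR adjusted p = 8.74e-05). 

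An accessory subunit of the same polymerase was called higher in wild type only, while the test of the difference between the genotypes called 0 members. pold3 (ENSDARG00000076169) had 4.42, 6.24, 5.30 and 5.47 CPM in injured mutants, against 4.30, 4.06, 2.34 and 5.19 CPM in sham mutants, and 10.6, 5.93, 4.22 and 8.82 CPM in injured wild type, against 4.45, 3.81, 2.26 and 2.73 CPM in sham wild type. Libraries overlapped in both genotypes. The log2 fold change of pold3 was 0.40 in mutants (SE 0.30, edgeR adjusted p = 0.340) and 1.15 in wild type (SE 0.31, edgeR adjusted p = 0.0110). The untested POLE2 row, the second subunit of the leading-strand polymerase, had 1.07 to 1.46 CPM in injured mutants, against 0.162 to 0.781 CPM in sham mutants, and 0.868 to 1.60 CPM in injured wild type, against 0 to 0.683 CPM in sham wild type; without the filter on low counts, and with the filter of 1 CPM in 4 libraries, it was called higher in wild type.

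The clamp, its loader, the single-strand binding proteins and the enzymes that join lagging-strand fragments held the members with the smallest changes. Of these 11 members 6 were called higher in mutants (median log2 fold change 0.89) and 9 in wild type (median 1.07). PCNA (ENSDARG00000054155), the sliding clamp and a common marker of proliferating cells, had 112, 117, 76.4 and 71.1 CPM in injured mutants, against 28.1, 21.4, 24.2 and 31.3 CPM in sham mutants, and 109, 109, 67.5 and 49.6 CPM in injured wild type, against 21.0, 21.9, 20.8 and 32.9 CPM in sham wild type. Injured and sham libraries were separate in both genotypes. PCNA rose by 1.83 in mutants (SE 0.25, edgeR adjusted p = 5.65e-05) and by 1.79 in wild type (SE 0.25, edgeR adjusted p = 7.71e-05). FEN1 (ENSDARG00000011404), the nuclease that trims the 5′ flaps of lagging-strand fragments, had 13.0, 18.9, 10.6 and 9.71 CPM in injured mutants, against 5.54, 5.20, 3.51 and 5.98 CPM in sham mutants, and 17.6, 14.9, 12.4 and 8.72 CPM in injured wild type, against 4.45, 4.92, 3.70 and 4.10 CPM in sham wild type. It showed no overlap either, with log2 fold changes of 1.33 in mutants (SE 0.25, edgeR adjusted p = 0.000830) and 1.63 in wild type (SE 0.26, edgeR adjusted p = 0.000223). LIG1, the ligase that seals these fragments, was called higher in both genotypes.

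The 5 subunits of replication factor C, the loader of PCNA, split. RFC4 was called higher in both genotypes, by 1.03 in mutants and 1.32 in wild type. RFC1 (ENSDARG00000054799), the large subunit, had 14.2, 16.5, 16.6 and 18.7 CPM in injured mutants, against 11.9, 15.1, 12.9 and 17.9 CPM in sham mutants, and 22.3, 23.0, 22.1 and 18.6 CPM in injured wild type, against 18.3, 22.2, 18.7 and 16.6 CPM in sham wild type. RFC5 (ENSDARG00000035634) had 10.3, 15.7, 8.50 and 9.79 CPM in injured mutants, against 11.4, 11.5, 12.5 and 9.68 CPM in sham mutants, and 16.0, 14.0, 10.5 and 10.5 CPM in injured wild type, against 10.1, 13.0, 9.88 and 9.90 CPM in sham wild type. Both genes overlapped between injured and sham libraries in both genotypes. RFC1 had a log2 fold change of 0.19 in mutants (SE 0.16, edgeR adjusted p = 0.396) and 0.18 in wild type (SE 0.16, edgeR adjusted p = 0.442). The values of RFC5 were -0.03 in mutants (SE 0.21, edgeR adjusted p = 0.929) and 0.25 in wild type (SE 0.21, edgeR adjusted p = 0.417). A p that misses the threshold does not show that these levels were equal. The CPM ratio of PCNA to RFC1, chosen after the values were seen and given without a test, was 5.83 ± 1.94 in injured mutants, against 1.85 ± 0.390 in sham mutants, and 3.84 ± 1.14 in injured wild type, against 1.31 ± 0.459 in sham wild type (SD, n = 4 each).

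RFC2 (ENSDARG00000014274), a small subunit of the loader, had 13.4, 15.9, 13.6 and 9.48 CPM in injured mutants, against 8.04, 8.93, 9.56 and 7.08 CPM in sham mutants, and 10.1, 12.4, 10.0 and 5.50 CPM in injured wild type, against 4.27, 4.13, 5.76 and 6.31 CPM in sham wild type. In each genotype 1 injured library, replicate 4, fell within the sham range. RFC2 had a log2 fold change of 0.64 in mutants (SE 0.24, edgeR adjusted p = 0.0504) and 0.90 in wild type (SE 0.25, edgeR adjusted p = 0.0132). The mutant value passed when injured mutant replicate 4 was left out (adjusted p = 0.0264), with DESeq2 (0.0422) and with the mutant groups fitted alone (0.0335), and the wild-type call was lost when injured wild-type replicate 2 was left out (adjusted p = 0.0532).

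Replication protein A coats the unwound single strands, and its 3 subunits differed in size of change. RPA1 (ENSDARG00000003938), the large subunit, had 56.7, 57.0, 39.7 and 44 CPM in injured mutants, against 37.0, 39.8, 40.0 and 37.1 CPM in sham mutants, and 58.5, 61.9, 56.3 and 41.2 CPM in injured wild type, against 34.7, 39.1, 32.3 and 49.5 CPM in sham wild type. Groups overlapped in both genotypes. Its log2 fold change was 0.36 in mutants (SE 0.17, edgeR adjusted p = 0.116) and 0.48 in wild type (SE 0.17, edgeR adjusted p = 0.0402). The wild-type call was lost without any of injured wild-type replicates 1 to 3 or sham wild-type replicates 1 to 3, with adjusted p of 0.0738 to 0.123, and with no filter on low counts (0.0682) or the 2 wild-type groups fitted alone (0.0723). RPA2 rose by 1.21 in mutants and 1.64 in wild type, and RPA3 by 1.23 in mutants and 1.07 in wild type.

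**Figure D3:**
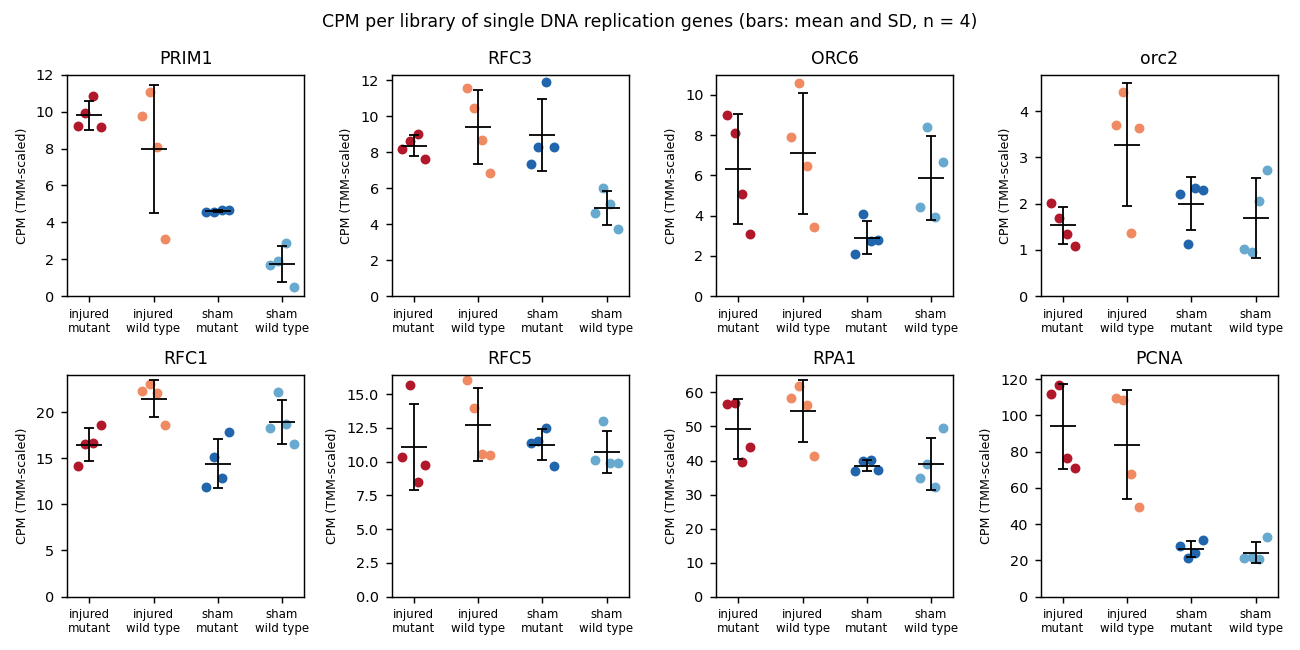
CPM in each library (points, with the group mean and SD, n = 4, as bars) of PRIM1, RFC3, ORC6, orc2, RFC1, RFC5, RPA1 and PCNA in injured mutants, injured wild type, sham mutants and sham wild type. PCNA is separated by injury, RFC1 and RFC5 overlap between injured and sham libraries, and PRIM1 and RFC3 are higher in sham mutants than in sham wild type.

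Nucleotide supply held the members with the highest fold changes and the 1 called lower. Of 7 tested rows 5 were called higher and 1 lower in each genotype, with a median log2 fold change of 2.39 in mutants and 3.10 in wild type. TYMS (ENSDARG00000042894), thymidylate synthase, which makes thymidylate from its uracil form, had 18.8, 22.1, 9.86 and 9.79 CPM in injured mutants, against 1.66, 0.325, 1.17 and 2.29 CPM in sham mutants, and 21.5, 17.6, 10.5 and 8.31 CPM in injured wild type, against 1.03, 1.43, 0.206 and 1.88 CPM in sham wild type. Injured libraries stood far above sham libraries in both genotypes. Unscaled counts of TYMS were 2 to 23 per library in sham mutants and 1 to 11 in sham wild type. TYMS rose by 3.36 in mutants (SE 0.47, edgeR adjusted p = 6.43e-05) and by 3.61 in wild type (SE 0.49, edgeR adjusted p = 5.78e-05).

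TK1 (ENSDARG00000102245), the thymidine kinase of the salvage route, had 6.43, 5.40, 4.81 and 3.70 CPM in injured mutants, against 0.416, 0.325, 0.195 and 0.997 CPM in sham mutants, and 4.19, 5.23, 4.71 and 1.76 CPM in injured wild type, against 0.171, 0.318, 0 and 0.683 CPM in sham wild type. No overlap was seen, and sham wild type rested on 7 counts in all. TK1 rose by 3.20 in mutants (SE 0.49, edgeR adjusted p = 0.000149) and by 3.63 in wild type (SE 0.57, edgeR adjusted p = 0.000185). The enzyme dhfr (ENSDARG00000004251), dihydrofolate reductase, which renews the folate that TYMS uses, had 3.89, 5.23, 3.94 and 2.85 CPM in injured mutants, against 2.22, 1.95, 2.34 and 1.1 CPM in sham mutants, and 5.43, 5.35, 5.58 and 1.76 CPM in injured wild type, against 2.74, 2.54, 2.67 and 3.07 CPM in sham wild type. The groups were separate in mutants, while in wild type injured replicate 4 lay below all sham libraries. The log2 fold change of dhfr was 1.07 in mutants (SE 0.36, edgeR adjusted p = 0.0301) and 0.71 in wild type (SE 0.34, edgeR adjusted p = 0.144). It passed in wild type without that library (0.98, adjusted p = 0.0192), and was lost in mutants without injured mutant replicate 2 or 3 or sham mutant replicate 2 or 4, with adjusted p of 0.0544 to 0.101.

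Ribonucleotide reductase makes the building blocks of DNA from ribonucleotides, with RRM1 as its large subunit, RRM2 as the small subunit of S phase, and RRM2B as a small subunit known from mammals to serve cells outside S phase and after DNA damage. RRM1 rose by 1.95 in mutants and 1.94 in wild type. The symbol RRM2 stood on 2 gene IDs, and the sources used here do not say how they are related. The deposited values of the rows were fractional in 13 of the 16 libraries and summed to a whole number in all 16, and RSEM, which the submitters' processing notes name, divides reads that match more than 1 gene. The value of each row is therefore uncertain. ENSDARG00000020711 had 54.9, 56.7, 31.4 and 29.5 CPM in injured mutants, against 6.79, 2.60, 5.47 and 6.58 CPM in sham mutants, and 26, 12.8, 17.6 and 33.1 CPM in injured wild type, against 3.59, 3.18, 1.44 and 2.05 CPM in sham wild type. ENSDARG00000078069 had 0, 10.3, 14.4 and 8.79 CPM in injured mutants, against 0, 3.09, 2.73 and 0.997 CPM in sham mutants, and 33.8, 43.3, 23.4 and 0 CPM in injured wild type, against 1.03, 2.06, 1.44 and 4.78 CPM in sham wild type. This second row was at 0 in injured mutant replicate 1, injured wild-type replicate 4 and sham mutant replicate 1, while the first row was well above 0 in each of those libraries.

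Summed over both rows, a step chosen after the values were seen, RRM2 had 54.9, 67, 45.9 and 38.3 CPM in injured mutants, against 6.79, 5.68, 8.20 and 7.58 CPM in sham mutants, and 59.8, 56.0, 41.1 and 33.1 CPM in injured wild type, against 4.62, 5.24, 2.88 and 6.83 CPM in sham wild type. The sum and the first row alone each separated injured from sham libraries in both genotypes, and the second row alone did not. Summed RRM2 rose by 2.86 in mutants (SE 0.25, edgeR adjusted p = 9.70e-07) and by 3.26 in wild type (SE 0.26, edgeR adjusted p = 5.84e-07). The first row alone rose by 2.98 in mutants (SE 0.35, edgeR adjusted p = 1.19e-05) and by 3.10 in wild type (SE 0.38, edgeR adjusted p = 2.08e-05). The second row alone gave 2.39 in mutants (SE 1.1, edgeR adjusted p = 0.113) and 3.41 in wild type (SE 1.05, edgeR adjusted p = 0.0232). It passed in mutants without injured mutant replicate 1 (2.82, adjusted p = 0.0450), and was lost in wild type without injured wild-type replicate 2 or sham wild-type replicate 1, 2 or 3, with adjusted p of 0.0605 to 0.0654, and with DESeq2 (adjusted p = 0.0704). Between injured mutants and injured wild type the first row differed by 0.94 (SE 0.31, edgeR adjusted p = 0.122), and the sum by 0.11 (SE 0.22, edgeR adjusted p = 0.843).

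Although orc2, RFC3 and RFC5 also had negative log2 fold changes in mutants, only RRM2B (ENSDARG00000033367) was called lower after injury. It had 20.6, 31.0, 19.5 and 21.3 CPM in injured mutants, against 31.5, 29.6, 44.7 and 32.3 CPM in sham mutants, and 20.1, 20.5, 23.4 and 15.6 CPM in injured wild type, against 26.7, 29.8, 32.5 and 36.5 CPM in sham wild type. In wild type every injured library was below every sham library, and in mutants injured replicate 2 lay within the sham range. RRM2B fell by 0.58 on the log2 scale in mutants (SE 0.18, edgeR adjusted p = 0.0234) and by 0.66 in wild type (SE 0.18, edgeR adjusted p = 0.0134). The mutant call was lost without injured mutant replicate 1, 3 or 4 or sham mutant replicate 3, with adjusted p of 0.0571 to 0.0918. The ratio of RRM2B to summed RRM2, given as a description, was 0.455 ± 0.0770 in injured mutants, against 4.89 ± 0.539 in sham mutants, and 0.436 ± 0.107 in injured wild type, against 7.03 ± 2.85 in sham wild type (SD, n = 4 each). The ratio of summed RRM2 to RRM1 was 1.2 ± 0.0424 in injured mutants, against 0.651 ± 0.158 in sham mutants, and 1.31 ± 0.238 in injured wild type, against 0.501 ± 0.146 in sham wild type (SD, n = 4 each). Neither ratio overlapped between injured and sham libraries.

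**Figure D4:**
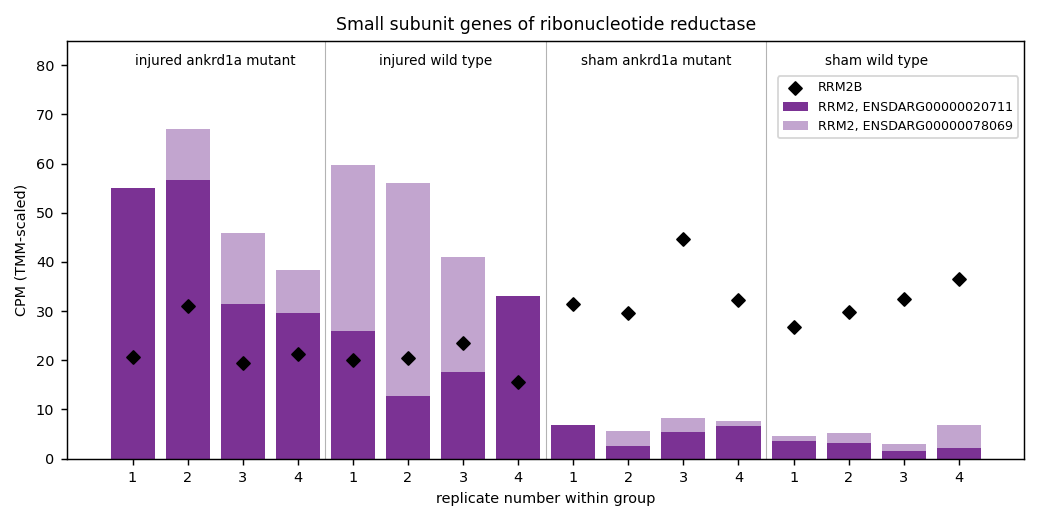
CPM of the RRM2 rows ENSDARG00000020711 and ENSDARG00000078069, stacked so that a bar's height is their sum, and of RRM2B (diamonds) in each library, by group from injured mutants to sham wild type. The second RRM2 row is at 0 in 3 libraries, the sum is 33.1 CPM or more in all injured libraries and 8.20 CPM or less in all sham libraries, and RRM2B is higher in sham than in injured wild type without overlap.

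Both subunits of the chromatin assembly factor, which deposits histones on new DNA, were called higher. CHAF1B (ENSDARG00000056473) had 12.6, 12.0, 8.75 and 6.32 CPM in injured mutants, against 0.832, 0.812, 1.76 and 2.29 CPM in sham mutants, and 13.3, 14.5, 9.43 and 4.67 CPM in injured wild type, against 1.03, 0.953, 1.03 and 0.683 CPM in sham wild type. The large subunit chaf1a (ENSDARG00000062152) had 33.4, 26.5, 25.6 and 26.5 CPM in injured mutants, against 5.13, 3.41, 3.12 and 6.98 CPM in sham mutants, and 36.7, 33.1, 30.5 and 17.0 CPM in injured wild type, against 3.93, 6.67, 4.32 and 8.87 CPM in sham wild type. Injured libraries exceeded all sham libraries for both subunits in both genotypes. CHAF1B rose by 2.74 in mutants (SE 0.39, edgeR adjusted p = 7.42e-05) and by 3.49 in wild type (SE 0.43, edgeR adjusted p = 2.08e-05). The rise of chaf1a was 2.54 in mutants (SE 0.29, edgeR adjusted p = 1.17e-05) and 2.29 in wild type (SE 0.29, edgeR adjusted p = 2.95e-05).

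The members varied together between the pools of a group. Injured wild-type replicate 4 was the lowest of its group for 45 of the 49 tested members (91.8%), where it was the lowest for 26.1% of all tested genes, and its median deviation from the group mean was -0.56 on the log2 scale. Injured wild-type replicate 2 was the highest for 31 members (63.3%, against 19.5% of all tested genes). In injured mutants, replicate 2 was the highest for 35 members (71.4%, against 26.5%) and replicate 4 the lowest for 29 (59.2%, against 23.8%), with median deviations of 0.38 and -0.31. Sham wild-type replicate 4 was the highest of its group for 30 members (61.2%, against 31%), with a median deviation of 0.39. Genes of 1 library share its pool, its depth and its scaling factor, so these shares describe libraries and were not tested.

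The replication genes did not order the pools as a list of mitosis genes did. Among 10 tested mitosis genes, the lowest injured wild-type library was replicate 3, for 9 genes (median deviation -0.57), and the lowest injured mutant library was replicate 1, for 9 genes (median deviation -0.60). For the replication genes those libraries had median deviations of -0.03 and 0.17. Among 17 leukocyte markers the lowest injured libraries were replicate 1 of each genotype, with median deviations of -0.41 in mutants and -0.39 in wild type. Leukocyte markers of injured wild-type replicate 4, the library lowest for replication genes, had a median deviation of 0.12. 

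**Figure D5:**
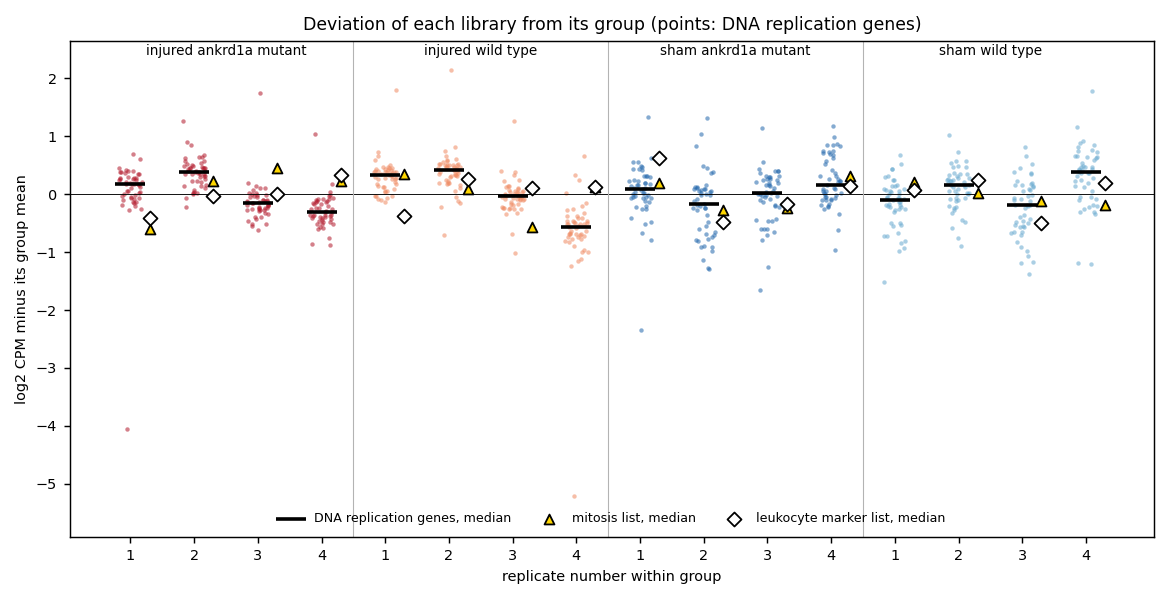
Deviation of each tested DNA replication gene from its group mean (vertical axis, log2 CPM units) in each of the 16 libraries, with the median per library as a black line and the medians of the mitosis list (triangles) and the leukocyte markers (diamonds) beside it. The lowest median of the replication genes is that of injured wild-type replicate 4, at -0.56, and the highest are those of injured wild-type replicate 2, at 0.41, and sham wild-type replicate 4, at 0.39.

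The comparison of genotypes asks whether the replication genes differ with ankrd1a. Between injured mutants and injured wild type edgeR called 0 of 49 members, where 2.56% of all tested genes were called in either direction. At an unadjusted p below 0.05 there were 3 members (orc2, RFC1 and the first RRM2 row; 16% of all tested genes), and DESeq2 called 0. The median log2 fold change was -0.14, with 14 members higher and 35 lower in mutants, and 0 members had separate libraries, where 3.67% of all tested genes were separate and higher in mutants and 4.36% lower. The differences ranged from -1.58 to 0.94, both ends being rows of RRM2. orc2 had a log2 fold change of -1.12 in injured mutants against injured wild type, which did not pass (SE 0.40, edgeR adjusted p = 0.163).

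In sham fish 2 members, PRIM1 and RFC3, were called higher in mutants and 0 lower, where 2.62% of all tested genes were called higher, 3.19% lower and 5.81% in either direction. PRIM1 (ENSDARG00000040163), the catalytic subunit of primase, had 4.57, 4.55, 4.68 and 4.69 CPM in sham mutants, against 1.71, 1.91, 2.88 and 0.512 CPM in sham wild type. In injured fish it had 9.25, 9.95, 10.8 and 9.17 CPM in mutants, against 9.74, 11.0, 8.06 and 3.11 CPM in wild type. The sham groups were separate, the sham mutants lay close together, and the injured groups overlapped. PRIM1 was higher in sham mutants by 1.41 on the log2 scale (SE 0.40, edgeR adjusted p = 0.0415), and in injured mutants the difference was 0.30 (SE 0.32, edgeR adjusted p = 0.698). After injury it rose by 1.08 in mutants (SE 0.33, edgeR adjusted p = 0.0214) and by 2.20 in wild type (SE 0.38, edgeR adjusted p = 0.000438). The difference between these was not called (interaction -1.12, SE 0.51, edgeR adjusted p = 0.628). Leaving out 1 sham library at a time ended the sham call in 7 of 8 fits, with adjusted p of 0.0724 to 0.106, and was 1.11 (adjusted p = 0.106) without sham wild-type replicate 4. The injury call in mutants was lost without injured mutant replicate 3 (adjusted p = 0.0508) or sham mutant replicate 2 (0.0502).

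RFC3 (ENSDARG00000055969), a small subunit of the clamp loader, had 7.35, 8.28, 11.9 and 8.28 CPM in sham mutants, against 4.62, 6.03, 5.14 and 3.75 CPM in sham wild type. In injured fish it had 8.17, 8.60, 9.00 and 7.63 CPM in mutants, against 11.6, 10.5, 8.68 and 6.85 CPM in wild type. Sham mutants were above sham wild type without overlap, and sham mutant replicate 3 was above every injured library. RFC3 was higher in sham mutants by 0.86 (SE 0.22, edgeR adjusted p = 0.0271), and in injured mutants the difference was -0.17 (SE 0.21, edgeR adjusted p = 0.735). After injury its log2 fold change was -0.09 in mutants (SE 0.21, edgeR adjusted p = 0.769) and 0.94 in wild type (SE 0.22, edgeR adjusted p = 0.00426). Its interaction of -1.03 (SE 0.30) had an unadjusted p of 0.00305 and an edgeR adjusted p of 0.363, so the difference between the genotypes in response to injury was not called. The sham call was lost without sham mutant replicate 3 (0.70, adjusted p = 0.0853), sham wild-type replicate 1 (0.83, 0.0668) or sham wild-type replicate 4 (0.75, 0.0813), and in a fit of the sham groups alone (adjusted p = 0.0501).

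Libraries of the sham groups were separate and higher in mutants for 4 members (6.66% of all tested genes) and lower for 1 (7.17% of all tested genes). Besides PRIM1 and RFC3 these were, chosen for their values, RFC2 (log2 fold change 0.71, edgeR adjusted p = 0.111), RPA2 (0.66, edgeR adjusted p = 0.157) and, lower in mutants, dhfr (-0.57, edgeR adjusted p = 0.432). Of the 49 members 9 had an unadjusted p below 0.05 in this comparison, as did 19.9% of all tested genes, and the median log2 fold change was 0.17. Beside these values, summed erythrocyte markers were 532 to 1200 CPM in sham mutants and 1300 to 2620 CPM in sham wild type, and summed skeletal muscle markers 4840 to 6890 CPM in sham mutants and 6990 to 9920 CPM in sham wild type, without overlap. The skeletal muscle sum rested mainly on ckma and an ACTA1 row (ENSDARG00000055618), with 16162 or more and 10752 or more counts in every sham library. In the same libraries myhz1.1 had at most 3 counts and myhz2 at most 168. In sham mutants as in sham wild type the SLC4A1 row ENSDARG00000024560, some rows of TNNI2 and the row of myhz1.2 were at 0. The other SLC4A1 row (ENSDARG00000012881) had 104 to 499 counts in sham mutants and 139 to 441 counts in sham wild type. Ranges overlapped for leukocyte markers (302 to 626 CPM in sham mutants and 188 to 317 CPM in sham wild type) and for atrium and bulbus markers (2660 to 4290 CPM in sham mutants and 1880 to 3190 CPM in sham wild type). Of the tested rows of these lists 0 of 7 erythrocyte, 0 of 10 skeletal muscle, 1 of 17 leukocyte and 2 of 7 atrium and bulbus rows were called, all of them higher in mutants. Cardiomyocyte sums overlapped narrowly, at 112000 to 137000 CPM in sham mutants and 105000 to 113000 CPM in sham wild type. Of 15 tested cardiomyocyte rows 5 were separate and higher in sham mutants, and 1 was called higher. Of 17 tested epicardium and fibroblast rows 3 were separate and lower and 1 separate and higher, and 1 was called lower. The part of these lists in the genotype differences was not tested. For the interaction edgeR called 0 members and 0 of all 14986 genes; 4 members (orc2, CDT1, PRIM1 and RFC3) had an unadjusted p below 0.05, as did 7.71% of all tested genes, and DESeq2 called 0 members and 42 genes in all. The interaction of CDT1 was -1.72 (SE 0.60, edgeR adjusted p = 0.478).

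Genes that act beside the members were given by lists chosen from their known roles. Beside the calls in each list, 16.5% of all tested genes were called higher and 12.4% lower after injury in mutants. In wild type these shares were 13.9% higher and 11.5% lower. Of 23 tested rows of other replisome and S phase genes 12 were called higher in mutants (median log2 fold change 1.00) and 13 in wild type (median 1.33), and 0 lower in either. UHRF1, which keeps DNA methylation on new strands, rose by 2.58 in mutants (SE 0.33, edgeR adjusted p = 2.98e-05) and by 3.12 in wild type (SE 0.33, edgeR adjusted p = 5.92e-06). A row of ASF1B (ENSDARG00000101037), a histone chaperone, rose by 2.63 in mutants (SE 0.46, edgeR adjusted p = 0.000460) and by 3.87 in wild type (SE 0.51, edgeR adjusted p = 4.49e-05), the largest change of this list there. This row had 1 to 3 unscaled counts in sham wild type. The other ASF1B row (ENSDARG00000043713) had 72 to 99 unscaled counts in injured mutants, against 30 to 68 in sham mutants. Its unscaled counts in wild type were 68 to 85 after injury, against 40 to 64 after sham operation. Scaling factors were 1.00 to 1.26 in injured and 0.815 to 0.947 in sham libraries, which lowers scaled levels of injured libraries relative to these counts. After scaling, the injured and sham libraries of ENSDARG00000043713 overlapped in both genotypes. TIMELESS, which protects the fork, gave -0.01 in mutants (edgeR adjusted p = 0.962) and -0.08 in wild type (edgeR adjusted p = 0.759).

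Of 28 tested rows of genes for entry into S phase 16 were called higher and 1 lower in mutants (median 1.08), and 16 higher and 0 lower in wild type (median 0.82). MYBL2 (ENSDARG00000032264), a transcription factor of S phase, rose by 3.15 in mutants (SE 0.46, edgeR adjusted p = 8.96e-05) and by 4.01 in wild type (SE 0.52, edgeR adjusted p = 3.38e-05). A second row, mybl2a (ENSDARG00000095241), had 13 to 43 unscaled counts in injured mutants, against 15 to 29 in sham mutants. In wild type mybl2a had 26 to 55 unscaled counts after injury, against 23 to 41 after sham operation. CCNE2, a cyclin that drives entry into S phase, rose by 1.54 in mutants (SE 0.48, edgeR adjusted p = 0.0228) and by 3.87 in wild type (SE 0.60, edgeR adjusted p = 0.000169). In sham wild type CCNE2 had 0 to 2 unscaled counts per library and MYBL2 (ENSDARG00000032264) had 0 to 5. The test of the difference between the genotypes called 0 of the 28 rows of this list. CDK4, a kinase of G1, was not called, with 0.07 in mutants (edgeR adjusted p = 0.814) and -0.08 in wild type (edgeR adjusted p = 0.786).

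The 21 tested rows of checkpoint and repair genes had 9 called higher and 1 lower in mutants (median 0.44), and 12 higher and 0 lower in wild type (median 1.06). FANCI, of the Fanconi anaemia repair route, rose by 2.97 in mutants (SE 0.45, edgeR adjusted p = 0.000140) and by 3.21 in wild type (SE 0.47, edgeR adjusted p = 0.000107). Of 10 tested rows of cell cycle inhibitors 2 were called higher and 4 lower in mutants (median -0.28), where 16.5% of all tested genes were called higher and 12.4% lower. In wild type 1 was called higher and 2 lower (median -0.19), near the 13.9% higher and 11.5% lower of all tested genes. The inhibitor cdkn1a, a target of p53, rose by 1.37 in mutants (SE 0.34, edgeR adjusted p = 0.00574) and by 1.51 in wild type (SE 0.35, edgeR adjusted p = 0.00404), while TOB1 (ENSDARG00000032619), an antiproliferative gene, fell by 0.48 in mutants (SE 0.18, edgeR adjusted p = 0.0472) and by 1.12 in wild type (SE 0.18, edgeR adjusted p = 0.000218). A second row, tob1b (ENSDARG00000021372), had 411, 529, 866 and 1251 unscaled counts in injured mutants, against 1406, 985, 889 and 1330 in sham mutants. The 1251 counts were in replicate 4, whose total of 11219932 counts was the largest of its group. After scaling, every injured mutant library lay below every sham mutant library for tob1b. In wild type tob1b had 564, 670, 1117 and 998 unscaled counts after injury, against 918, 1048, 667 and 398 after sham operation. These wild-type groups overlapped with and without scaling. The lowest log2 fold change of this list in mutants was -2.75. There cdkn1ca had 8 to 22 unscaled counts after injury, against 39 to 155 after sham operation. Its wild-type libraries overlapped, with 12 to 64 unscaled counts after injury, against 22 to 67 after sham operation. All 10 tested mitosis genes were called higher in each genotype, with medians of 2.65 in mutants and 2.81 in wild type.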

How the data were processed

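The deposited file holds expected counts made by the authors, which estimate the reads of each gene and can be fractional; 3.00% to 5.02% of a library's values were not whole. The submitters' processing notes name fastp 0.23.4, STAR 2.7.0 and 2.7.10 and RSEM 1.3.3; the genome build, annotation and use of strand in counting are not given in the sources used here. Per the labels' protocols, libraries were poly(A)-selected and stranded. Groups and replicate numbers came from the titles.

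Counts were rounded and filtered with filterByExpr (14986 genes), scaled by TMM (factors 0.815 to 1.26) and tested with edgeR 4.0.16 (quasi-likelihood F test; R 4.3.3, limma 3.58.1) in 1 fit of 4 group means over 16 libraries, with Benjamini-Hochberg adjustment over all tested genes. The filter can favour genes that are high in 1 group. Standard errors come from the F statistic. Deviations use log2 CPM with a prior count of 2. No library was a copy of another of its group (chi-square per degree of freedom 7.68 to 39.5 over 24 pairs). The labels name no molecular identifiers, so counting error does not cover all of a value's error.

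Members, lists, roles and alternatives were chosen with earlier results of these data known. For 29201 of 32520 gene IDs a symbol was found. Values in every library are given, per role, for the 2 members with the largest and the 1 with the smallest change after injury and the one with the highest mean level, for members called between genotypes or lower after injury or not called after injury, and for rows sharing a name; MCM7 was added after its values were seen. The alternatives were DESeq2 1.42.0, RLE scaling, no filter, a filter of 1 CPM in 4 libraries, fits of the compared groups alone, a replicate block, a required log2 fold change of 1 or more, and the omission of 1 library at a time. The scripts were tested on simulated data.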

Additional observations from a re-analysis of the deposited data

Results flagged for a closer look

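Values of a named gene or of a role's summed CPM are given here where 1 library of a group of 4 stood apart from the other libraries by more than Dixon's 95% critical value for 4 samples, which bounds the gap to the nearest library divided by the group's range. Of 151 groups tested 9 were found (5.96%), and chance gives about 1 in 20.

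Among injured mutants, CDC6 had 8.84 CPM in replicate 1, with the next library at 4.81 CPM, and chaf1a had 33.4 CPM in the same library, with the next at 26.5 CPM. CDT1 had 4.89 CPM in replicate 2, with the next at 3.08 CPM, and RRM2B had 31.0 CPM there, with the next at 21.3 CPM. Among injured wild type, dhfr had 1.76 CPM in replicate 4, below the others at 5.35 CPM or more. Among sham mutants, orc2 had 1.14 CPM in replicate 2, with the next at 2.22 CPM. Among sham wild type, RFC5 had 13.0 CPM in replicate 2, with the next at 10.1 CPM. PCNA had 32.9 CPM in sham wild-type replicate 4, with the next at 21.9 CPM, and the summed nucleotide supply genes had 62.0 CPM in that library, with the next at 47.0 CPM.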

How the results depend on the processing

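Counts of called members stayed within 1.5 times under DESeq2, RLE scaling, no filter, a filter of 1 CPM in 4 libraries and the replicate block, in all 5 comparisons. With a minimum log2 fold change of 1, 20 members were called higher and 0 lower after injury in mutants, 23 higher and 0 lower in wild type, and 0 higher in sham mutants against sham wild type. The fit of the compared groups alone called 1 member higher in sham mutants. Leaving out 1 library in turn gave 31 to 38 called higher and 0 to 1 lower after injury in mutants, 37 to 43 higher and 1 to 1 lower in wild type, 0 to 2 higher in sham mutants, and 0 to 0 elsewhere. Without 1 library the log2 fold change after injury in mutants was -0.234 to 0.0759 for RFC5, positive in 4 of 8 fits (without injured mutant replicate 1, 3 or 4 or sham mutant replicate 3), and -0.177 to 0.0642 for RFC3, positive without sham mutant replicate 3. None of these values was called, and the cause was not tested.

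The deviations of same-numbered libraries correlated at -0.15 to 0.207. Libraries of different numbers were not compared in this way, so these values do not settle whether replicate numbers pair the samples. With the replicate block 37 members were called higher after injury in mutants, 42 in wild type and 2 in sham mutants against sham wild type; MCM10 (adjusted p = 0.0587) in mutants and RPA1 (adjusted p = 0.0572) in wild type were no longer called. Depth limits the members with few counts in sham libraries, among them MCM10, CDT1, TK1, TYMS, CHAF1B, ORC5, CDC45, GINS2, GINS3 and GINS4, and the untested rows. It also limits MYBL2 (ENSDARG00000032264), CCNE2 and the ASF1B row ENSDARG00000101037.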
